A study of Mus musculus with 55 samples.

Results

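The lysyl oxidase family of the mouse has 5 members, Lox, Loxl1, Loxl2, Loxl3 and Loxl4. They were found by matching the Ensembl IDs of the deposited tables to the GENCODE M21 symbols, and are 5 of the 31933 genes listed for each fat depot. All of the libraries come from male C57BL/6NRj mice, 10 weeks old, given corticosterone (GC), the glucocorticoid hormone of rodents, or placebo (Ctrl) in the drinking water for 4 weeks at 13 °C (CT) or at 22 °C (RT). Pieces of fat were cut out by laser from brown fat between the shoulder blades (iBAT), from the gonadal white depot (goWAT) and from the white depot under the skin (scWAT), and their RNA was sequenced with the full-length SMART-Seq2 protocol, which gave 55 libraries in 12 groups. In the order GC_CT, Ctrl_CT, GC_RT and Ctrl_RT, the groups of iBAT held 5, 5, 5 and 3 libraries. Those of goWAT held 5, 5, 5 and 4, and those of scWAT 4, 5, 5 and 4. The mice carried no allele that the labels name, so all 4 treatments of a depot share the wild-type background of the strain.

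Lysyl oxidases are secreted copper enzymes. They oxidise lysine side chains of collagen and elastin to aldehydes, which then join neighbouring chains by covalent cross-links and make the matrix around cells stiffer and harder to dissolve. Lox and Loxl1 are the short members and are secreted as proenzymes that proteases such as Bmp1 cut, whereas Loxl2, Loxl3 and Loxl4 carry scavenger receptor cysteine-rich domains in front of the catalytic domain. In fat, the cross-linked matrix surrounds each adipocyte, and it is made by adipocytes and by fibroblast-like progenitors.

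The catalytic domain of each member holds the short copper-binding site. The coding DNA of this site is shown because all members have it and because it shows how far their reads can be told apart. The likeness of the members is wider than this site. Over the aligned part of their last 200 residues, pairs of members were 50.6% to 75.0% identical. The 33 bases below are from the GENCODE M21 transcripts on GRCm38, written 5′ to 3′ on the coding strand, with the 4 histidine codons of the site in capitals. The stretch was found as the 1 match in each coding sequence to the order of tryptophan, histidine, cysteine and tyrosine codons of this site, and in each of the 5 genes it runs over the junction of a pair of exons.
Loxl1: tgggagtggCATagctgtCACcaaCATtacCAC
Loxl2: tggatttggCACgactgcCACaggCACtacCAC
Loxl3: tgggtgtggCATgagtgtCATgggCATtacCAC
Loxl4: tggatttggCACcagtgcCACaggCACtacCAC
The Loxl1 site lies in exons 3 and 4 of 7 at chr9:58293720-58294381 (minus strand), the Loxl2 site in exons 10 and 11 of 14 at chr14:69682316-69689037 (plus strand), the Loxl3 site in exons 10 and 11 of 14 at chr6:83049995-83050125 (plus strand) and the Loxl4 site in exons 11 and 12 of 15 at chr19:42598807-42599899 (minus strand). The sites of Loxl2 and Loxl4 differed at 2 of the 33 bases, those of Loxl3 and Loxl1 at 8, and those of Loxl4 and Loxl1 at 12. The longest run of bases that a pair of members had in common in their transcripts was 32, between Lox and Loxl1.

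Lox itself (ENSMUSG00000024529) lies at chr18:52516067-52529867 on the minus strand and Loxl1 (ENSMUSG00000032334) at chr9:58287738-58313186 on the minus strand. Loxl2 (ENSMUSG00000034205) is at chr14:69609068-69695834 on the plus strand, Loxl3 (ENSMUSG00000000693) at chr6:83034173-83052562 on the plus strand and Loxl4 (ENSMUSG00000025185) at chr19:42593982-42612813 on the minus strand. The protocol keeps no strand, so reads from overlapping genes could be counted for a member. Of the Loxl3 exon bases 11.6% overlap exons of Htra2, a mitochondrial protease gene on the other strand, of the Loxl2 exon bases 5.57% overlap an antisense gene, and of the Lox exon bases 0.63% do. Values of Loxl3 are therefore uncertain, and the share of its counts that came from Htra2 is not known.

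The iBAT libraries held 14043773 to 35790654 gene counts. The range was 12310822 to 53121372 for goWAT and 8622178 to 56450653 for scWAT. Libraries of the same group correlated at 0.850 to 0.969 in log2 CPM, which are counts scaled to library size, over 101 pairs. The labels do not tie libraries to animals, so the p-values measure the spread between these libraries, and libraries of different depots may come from the same mouse. Some libraries stood apart. In summed CPM of 15 macrophage markers, 1 iBAT library of GC_RT reached 5018, while the lowest of that group had 114, and in scWAT GC_RT the libraries ran from 812 to 12172. Brown fat markers summed to 2069 CPM in 1 goWAT library of GC_CT and 1413 in 1 of GC_RT, against at most 157 in the goWAT Ctrl libraries. Epithelial markers, which belong to skin, glands or the epididymis, reached 3906 CPM in goWAT Ctrl_CT and 310 in scWAT GC_CT.

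Corticosterone raised Lox in all 3 depots and at both temperatures, and it was the only family member that passed the test in any of these 6 comparisons. The fold change over placebo lay between 2.76 and 4.61. Lox makes the enzyme that cross-links fibrillar collagens and elastin in most connective tissue. A rise in a piece of tissue can come from more RNA per cell or from more cells of a type that makes it, and these cannot be told apart in bulk libraries.

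In iBAT at 13 °C, Lox had 72.5, 49.7, 36.4, 35.5 and 59.2 CPM in the GC libraries, against 17.7, 11.2, 15.7, 13.0 and 11.5 CPM in the Ctrl libraries. The groups did not overlap, and the Ctrl libraries lay close together. The log2 fold change was 1.87 ± 0.29 (SE; adjusted p = 0.0017 in the quasi-likelihood test of edgeR, by Benjamini-Hochberg over all genes tested). Of the 4 members tested there, 1 was called, where 0.728% of all tested genes were called and 0.32% were called higher.

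At 22 °C the iBAT values were 63.8, 102, 69.0, 60.8 and 34.2 CPM in the GC libraries, against 17.9, 19.2 and 8.45 CPM in the Ctrl libraries. Again every GC library was above every Ctrl library. The groups did not overlap, in either direction, for 7.57% of the iBAT genes in this comparison and for 2.65% in the one at 13 °C. The log2 fold change was 2.11 ± 0.36 (adjusted p = 0.00519), beside 0.664% of genes called and 0.332% called higher. In a fit of only these 8 libraries the log2 fold change was 2.10 with an adjusted p of 0.0559 (edgeR). The call at this temperature thus rests on the spread shared with the 13 °C groups. The Ctrl library with the highest sum of progenitor markers (4755 CPM) and the GC library with the highest sum of macrophage markers (5018 CPM) were left out together as an alternative, and then the log2 fold change was 2.40 (adjusted p = 0.0197, edgeR).

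In goWAT at 13 °C, Lox had 230.1, 101, 111, 114 and 202 CPM in the GC libraries, against 33.1, 30.3, 63.0, 45.5 and 48.6 CPM in the Ctrl libraries. The GC libraries fell into a pair above 200 CPM and 3 libraries close to 110 CPM, and the groups did not overlap, as for 4.79% of the goWAT genes. The log2 fold change was 1.78 ± 0.30 (adjusted p = 0.00269), where 1.45% of genes were called and 0.848% called higher.

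At 22 °C the goWAT values were 215, 123, 209.5, 110.2 and 89.0 CPM in the GC libraries, against 38.2, 27.5, 49.5 and 40.3 CPM in the Ctrl libraries. The groups did not overlap, as for 8.32% of the genes, and the log2 fold change was 1.94 ± 0.33 (adjusted p = 0.00109). Here edgeR called more of the transcriptome than at 13 °C, with 5.98% of genes called and 3.13% called higher. Of other test tools, DESeq2 called 2384 genes here and 962 at 13 °C, but limma called 1019 here and 2202 at 13 °C. Both goWAT effects on Lox stayed called without the GC libraries rich in brown fat transcripts, at log2 fold changes of 1.56 at 13 °C and 1.76 at 22 °C.

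In scWAT at 13 °C, Lox had 200.1, 145, 121 and 229 CPM in the GC libraries, against 90.8, 50.3, 59.6, 68.3 and 46.5 CPM in the Ctrl libraries. The groups did not overlap, as for 8.53% of the scWAT genes, and this was the smallest of the 6 effects, with a log2 fold change of 1.46 ± 0.27 (adjusted p = 0.00419; 2.59% of genes called, 1.45% higher). Of these 4 GC libraries, 3 were rich in epithelial transcripts. Leaving them out together with 1 such Ctrl library left a single GC library, with a log2 fold change of 1.65 and an adjusted p of 0.217.

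At 22 °C the scWAT values were 148, 133, 283, 213 and 205 CPM in the GC libraries, against 38.0, 28.5, 43.7 and 60.0 CPM in the Ctrl libraries. All GC libraries were above all Ctrl libraries, and the groups did not overlap, in either direction, for 8.49% of the genes. This was the largest effect, with a log2 fold change of 2.21 ± 0.29 (adjusted p = 9.49e-05; 6.93% of genes called, 3.48% higher). Without the pair of GC libraries rich in macrophage transcripts it was 2.15 (adjusted p = 0.000218).

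**Figure D1:**
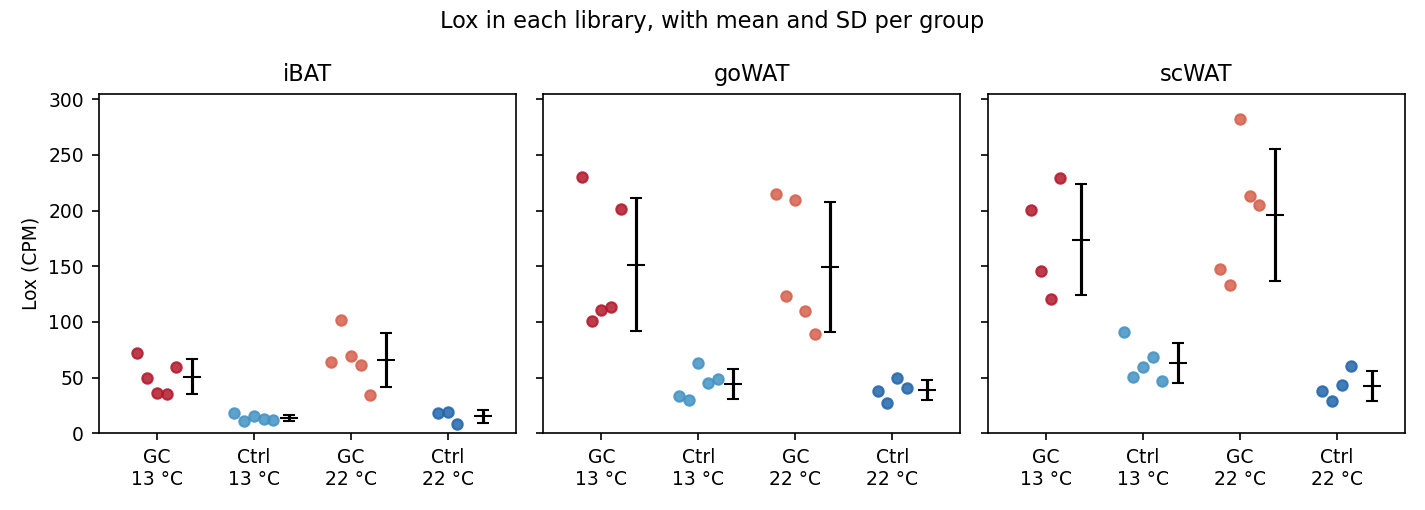
Lox in CPM in each library (points), with the mean and SD of each group (black), in iBAT, goWAT and scWAT, GC left of Ctrl at 13 °C and at 22 °C. In each depot and at each temperature the GC points lie above all Ctrl points, with 34.2 to 102 CPM in the iBAT GC libraries and 8.45 to 19.2 CPM in the iBAT Ctrl libraries.

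Few genes shared this pattern. Of 16667 genes tested in all 3 depots, 4 (0.024%) were called higher in each of the 6 comparisons, namely Lox, Arntl (a core activator of the circadian clock), Osgin1 and Mturn, named here after their values were seen. A further 11 genes (0.066%) were called lower in all 6, among them the clock genes Per1, Dbp, Tef, Nr1d2 and Ciart, likewise named afterwards. Lox was not the strongest response in any depot. Among genes called, a larger log2 fold change than that of Lox was found at 13 °C and 22 °C for 25 and 29 in iBAT. The numbers were 58 and 246 for goWAT and 154 and 197 for scWAT.

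Summed markers of other cell types differed with treatment in part of these comparisons, and such a sum can follow a few abundant markers. The 15 adipose progenitor markers, genes of the fibroblast-like cells that make much of the matrix, summed to 16066 to 22821 CPM in scWAT GC_CT and 4696 to 13995 CPM in scWAT Ctrl_CT, and these groups did not overlap. In scWAT at 22 °C the sums were 8012 to 18682 CPM in GC and 6275 to 10726 CPM in Ctrl. In goWAT they overlapped, with 13726 to 45307 CPM in GC and 10251 to 23947 CPM in Ctrl at 13 °C, and 6157 to 34674 CPM in GC and 9638 to 22562 CPM in Ctrl at 22 °C. In iBAT the sums overlapped between treatments, with 536 to 2315 CPM in GC and 777 to 2181.5 CPM in Ctrl at 13 °C, and 1278 to 1937 CPM in GC and 933 to 4755 CPM in Ctrl at 22 °C. None of the 15 progenitor markers was at 0 in all libraries of a depot. The part of the progenitor markers in the Lox result was not tested. As single genes, 1 of 15 progenitor markers was called higher in scWAT at 13 °C, 2 in scWAT at 22 °C and 1 in goWAT at 22 °C. The median log2 fold change over the 15 markers was 0.01 in scWAT at 13 °C, -0.14 in scWAT at 22 °C, -0.14 in goWAT at 13 °C and 0.32 in goWAT at 22 °C.

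Brown fat markers were lower with GC in scWAT. In scWAT, 10 brown adipocyte markers such as Ucp1, the heat-producing uncoupling protein, summed to 146 to 648 CPM in GC_CT against 1103 to 3732 CPM in Ctrl_CT, and to 70.9 to 195 CPM in GC_RT against 666 to 3198 CPM in Ctrl_RT. Of the 10 markers 5 were called lower at 13 °C and 7 at 22 °C. In iBAT the same sum was 9470 to 25526 CPM in GC_CT and 11210 to 23273 CPM in Ctrl_CT, with overlap, and the fold change of Lox there was 3.66, beside 2.76 in scWAT at 13 °C. The part of brown adipocytes in the scWAT result was not tested. White adipocyte markers summed to 38780 to 64816 CPM in scWAT GC_RT and 72216 to 104176 CPM in Ctrl_RT, without overlap. In scWAT at 13 °C they overlapped, at 53618.5 to 160229 CPM in GC and 41992 to 74854 CPM in Ctrl. In iBAT at 22 °C, Schwann cell markers summed to 109 to 170 CPM in GC and 40.9 to 57.6 CPM in Ctrl. White adipocyte sums there overlapped, at 10690 to 23217 CPM in GC and 21813 to 55223 CPM in Ctrl. The part of these cells in the Lox result was not tested.

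Loxl1, the short member most like Lox and the one known for binding elastic fibres, did not follow Lox. In scWAT at 22 °C, Loxl1 had 62.1, 50.8, 55.03, 48.3 and 34.5 CPM in the GC libraries, against 52.3, 46.6, 115 and 39.1 CPM in the Ctrl libraries. In goWAT at 22 °C it had 111, 90.3, 57.7, 45.8 and 29.7 CPM in the GC libraries, against 76.9, 58.4, 69.4 and 97.9 CPM in the Ctrl libraries. In both comparisons the groups overlapped. Over the 6 comparisons the log2 fold change of Loxl1 lay between -0.34 and 0.63, and the lowest adjusted p was 0.487, in iBAT at 13 °C. There Loxl1 had 19.8, 11.5, 14.3, 9.21 and 16.0 CPM in the GC libraries, against 11.6, 6.99, 11.04, 8.91 and 7.17 CPM in the Ctrl libraries, with a log2 fold change of 0.63 ± 0.30.

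Among the members with scavenger receptor domains, Loxl2 was the one with the lowest adjusted p. Loxl2 oxidises collagen IV of basement membranes. In goWAT at 22 °C it had 5.50, 12.7, 4.42, 12.3 and 6.02 CPM in the GC libraries, against 4.32, 1.75, 3.94 and 2.92 CPM in the Ctrl libraries. The groups did not overlap, although the lowest GC and the highest Ctrl library were close, and the log2 fold change was 1.33 ± 0.48 (adjusted p = 0.0973). DESeq2 gave 1.35 with an adjusted p of 0.0394. The highest GC values were those of GC_RT libraries 2 and 4, which earlier work on these data had marked as of low quality, and without them the log2 fold change was 0.70 (adjusted p = 0.50). In iBAT at 22 °C the Loxl2 estimate had the other sign, -0.92 ± 0.61, with 0.890 to 1.75 CPM in the GC libraries and 0.576 to 4.96 CPM in the Ctrl libraries.

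Loxl3 and Loxl4 gave few counts. Loxl3 had 0 to 314 counts per library and was at 0 in 1 library. Its log2 fold changes ran from -0.52 to 0.78 with adjusted p of 0.523 or more. Loxl4 had 0 to 103 counts, and it was at 0 in 11 of the 55 libraries, 8 of them from iBAT, where it did not pass the filter on low counts. A count of 0 allows a level of up to 3 counts, which was 0.0728 to 0.211 CPM in the iBAT libraries. In scWAT at 13 °C, Loxl4 had 1.27, 0.579, 0 and 0.0694 CPM in the GC libraries, against 0.252, 0.0682, 0.129, 0.0871 and 0 CPM in the Ctrl libraries. The groups overlapped, and the log2 fold change of 2.00 ± 0.95 did not pass the test (adjusted p = 0.318). Over the 22 tests of Loxl1 to Loxl4 against placebo, edgeR called 0, 3 had an unadjusted p under 0.05, DESeq2 called 1 and limma called 0.

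**Figure D2:**
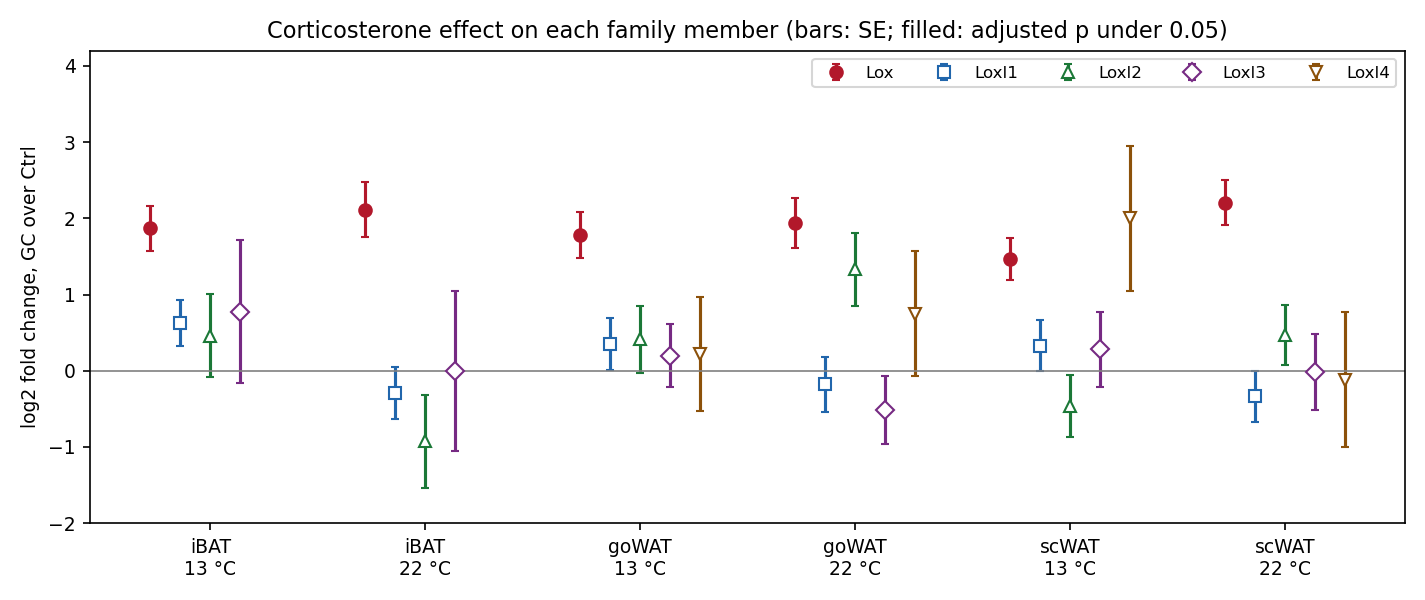
Log2 fold change of GC over Ctrl for each member (symbols) with its SE (bars), by depot and temperature; filled symbols passed the test. Lox lies between 1.46 and 2.21 throughout, and the open symbols of the other members scatter between -0.92 and 2.00.

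Since every library holds all members, Lox can be read against the others within a library, where scaling cancels. Per kilobase of exon, Lox was above Loxl1 in 26 of 29 GC libraries and in 6 of 26 Ctrl libraries. In iBAT this was 10 of 10 GC and 4 of 8 Ctrl libraries, in goWAT 8 of 10 GC and 0 of 9 Ctrl libraries, and in scWAT 8 of 9 GC and 2 of 9 Ctrl libraries. The iBAT Ctrl libraries differed by temperature, with log2 ratios of -0.0294 to 0.150 at 13 °C and -2.25 to -0.470 at 22 °C. The median ratio of Lox to Loxl1 per kilobase was 2.06 in GC libraries and 0.531 in Ctrl libraries.

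The log2 ratio of Lox to Loxl1 averaged 1.30 ± 0.29 in GC and 0.07 ± 0.08 in Ctrl libraries of iBAT at 13 °C (SD, n = 5 each), a difference of 1.23 (two-sided exact permutation test, p = 0.00794, the smallest p that 5 against 5 libraries allow). In goWAT the difference was 1.49 at 13 °C (exact permutation p = 0.00794) and 2.19 at 22 °C (exact permutation p = 0.0159, again the smallest possible). In scWAT at 22 °C it was 2.43 (exact permutation p = 0.0159) and in iBAT at 22 °C 2.52 (exact permutation p = 0.0357), both the smallest possible. In scWAT at 13 °C the groups overlapped, with a difference of 1.25 (exact permutation p = 0.0635). Adjusted over the 18 such ratios tested (Lox to Loxl1, Loxl2 and Loxl3), the p-values were 0.0357 in goWAT at both temperatures, in iBAT at 13 °C and in scWAT at 22 °C, 0.0536 in iBAT at 22 °C and 0.0762 in scWAT at 13 °C. The groups did not overlap in 5 of these 6 comparisons for the ratio to Loxl1, in 3 of 6 for the ratio to Loxl2, and in 2 of 6 for the ratio to Loxl3.

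As a share of the family's reads per kilobase, Lox made up 68.3% ± 8.20 in scWAT GC_RT and 31.2% ± 12.2 in scWAT Ctrl_RT (SD, n = 5 and 4), and Loxl1 26.5% ± 7.71 in GC_RT and 60.9% ± 11.95 in Ctrl_RT. In iBAT at 13 °C the Lox share was 68.6% ± 3.17 in GC and 47.6% ± 0.626 in Ctrl (SD, n = 5 each), and in the 5 Ctrl libraries it stayed between 47.2% and 48.7%. In goWAT at 22 °C it was 58.3% ± 8.85 in GC and 24.8% ± 4.11 in Ctrl (SD, n = 5 and 4). Loxl2, Loxl3 and Loxl4 together stayed the small part of the family in every group.

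**Figure D3:**
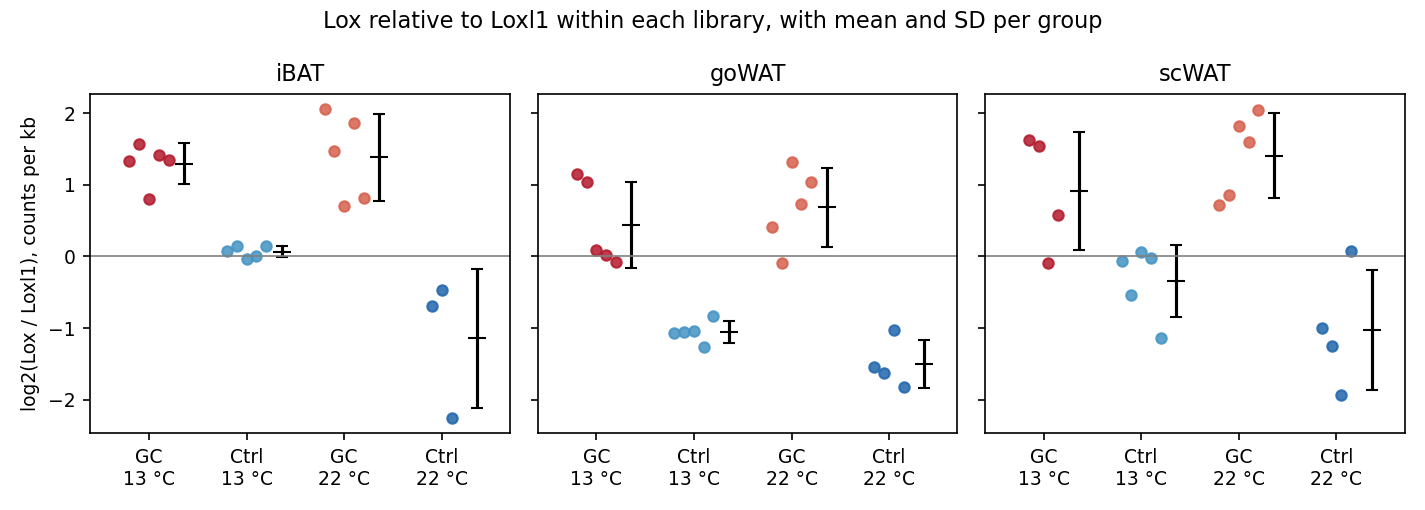
Log2 ratio of Lox to Loxl1 in counts per kilobase of exon in each library (points), with the mean and SD of each group (black); at the grey line both are equal. GC libraries lie above it in 26 of 29 cases and Ctrl libraries below it in 20 of 26, and the GC and Ctrl points overlap in scWAT at 13 °C.

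Genes that make, process or organise the substrates of the enzymes were grouped in 8 lists. In goWAT at 22 °C, where 3.13% of all genes were called higher, 4 of 13 tested network-forming and other non-fibrillar collagens rose and none fell (median log2 fold change of the list -0.01, of all genes 0.05), with Col4a1 at 0.97 ± 0.22 and Col4a2 at 0.93 ± 0.24, the main chains of basement membrane, Col6a1 at 1.18 ± 0.31 and Col18a1 at 1.5 ± 0.24. Of 14 genes that process procollagen or the proenzymes, or that chaperone collagen, 2 rose (median of the list 0.83). Thbs1, a matrix protein that activates latent TGF-beta, had a log2 fold change of 3.39 ± 0.66 (adjusted p = 0.00421) and Sparc, a collagen-binding protein, 1.93 ± 0.32 (adjusted p = 0.00115). Of 16 elastic fibre genes 2 rose (median 0.50), Mfap4 at 4.39 ± 0.81 and Efemp1 at 1.28 ± 0.29. Of 17 genes of the TGF-beta pathway, which induces Lox in many fibroblasts, 2 rose (median 0.70), the ligand Tgfb3 at 1.40 ± 0.25 and the inhibitor Smad7 at 1.83 ± 0.43. Of 15 genes of the hypoxia response, another known inducer of Lox, 1 rose and none fell (median -0.23), and it was Ankrd37 at 2.65 ± 0.72 (adjusted p = 0.0302). No gene of the lists of fibrillar collagens, of collagen hydroxylation and glycosylation or of copper supply was called, at medians of 0.45, 0.18 and 0.23.

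Markers of other cell types moved in the same comparison. Of 7 tested skeletal muscle markers 3 were called higher, with sums of 36.1 to 309 CPM in GC and 17.6 to 196 CPM in Ctrl libraries. Of 12 endothelial markers 2 were called lower, with sums of 448.5 to 1075 CPM in GC and 970.2 to 1433 CPM in Ctrl libraries, and of 12 lymphocyte markers 2 were called lower, with sums of 10.1 to 27.0 CPM in GC and 19.6 to 35.5 CPM in Ctrl libraries. Of 10 white adipocyte markers 2 were called higher and 1 lower. The part of these cells in the matrix genes was not tested. Without the libraries of low quality 7 of the 11 genes stayed called, while Col4a1, Col4a2, Col6a1 and Smad7 were lost and 709 genes in all were called in place of 1206. Without the epithelial-rich libraries Ankrd37 alone of the 11 was lost.

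In scWAT at 22 °C, where 3.48% of all genes were called higher, 2 of 12 network collagens rose (median of the list 0.51, of all genes 0.06), again Col4a1 at 1.01 ± 0.23 and Col4a2 at 1.12 ± 0.24. Of 12 processing genes 3 rose (median 0.49), with Thbs1 at 3.96 ± 0.58, Sparc at 1.33 ± 0.27 and Adamts2, a procollagen N-proteinase, at 1.02 ± 0.27. Mfap5, a microfibril protein and 1 of 16 elastic fibre genes, rose by 1.82 ± 0.30, and Plod3, a lysyl hydroxylase that prepares collagen lysines and 1 of 13 genes of collagen hydroxylation and glycosylation, by 1.27 ± 0.30. The medians of these lists were 0.14 and 0.27. Mfap5 is also among the progenitor markers. Of 17 TGF-beta genes 3 rose (median 0.49), Tgfb3, Smad7 and the target Tgfbi. Of 14 genes of the hypoxia response none rose and 2 fell (median -0.25), Pdk1 at -1.53 ± 0.29 and Egln3 at -2.29 ± 0.50. In this comparison 3 of 15 macrophage markers were called higher, and the macrophage sum was 812 to 12172 CPM in GC and 629 to 1548 CPM in Ctrl libraries. The part of macrophages in these matrix genes was not tested. Without the pair of GC libraries highest in macrophage markers 10 of the 12 list genes stayed called and Adamts2 and Tgfbi were lost.

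At 13 °C edgeR called 1 gene of the 8 lists in goWAT, Col18a1 at 0.97 ± 0.22 (adjusted p = 0.0253), and 2 in scWAT, Efemp1 at 1.24 ± 0.29 and Adamts2 at 1.09 ± 0.27. Both scWAT calls were lost without the epithelial-rich libraries, which left 1 GC library. The numbers depended on the tool. For goWAT limma called 16 at 13 °C and 11 at 22 °C, and DESeq2 called 8 and 20. For scWAT limma called 8 and 18, and DESeq2 called 8 and 17. Each list gene was also tested for a GC response that differed between 13 °C and 22 °C. For goWAT edgeR called 0 of 104, with 7 at an unadjusted p under 0.05, while DESeq2 called 2 and limma called 1. The scWAT test gave 0 of 101 by edgeR, with 10 at an unadjusted p under 0.05, 2 by DESeq2 and 0 by limma. Of 95 tested for iBAT each tool called 0, and edgeR had 6 at an unadjusted p under 0.05. Each list as a set was not tested for such a difference. Over the 6 comparisons none of the 50 tests of fibrillar collagens was called by edgeR, while 12 had an unadjusted p under 0.05 and DESeq2 and limma called 2 each. Of the 48 tests of copper supply genes edgeR called none, 12 had an unadjusted p under 0.05, DESeq2 called 3 and limma called 2. In iBAT edgeR called none of the 95 genes of the 8 lists at either temperature. There 16 genes at 13 °C and 19 at 22 °C had an unadjusted p under 0.05, DESeq2 called 3 and 6, and limma called 1 and 15.

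Lox passed the test in none of the 6 comparisons of 13 °C with 22 °C. It had an unadjusted p under 0.05 in 0 of them by edgeR, and DESeq2 and limma called it in 0. The log2 fold change of Lox lay between -0.38 and 0.57, and the lowest adjusted p was 0.405, in scWAT of placebo mice. There Lox had 90.8, 50.3, 59.6, 68.3 and 46.5 CPM at 13 °C, against 38.0, 28.5, 43.7 and 60.0 CPM at 22 °C, with a log2 fold change of 0.57 ± 0.28. The groups overlapped, since the highest library at 22 °C lay above 3 of those at 13 °C. Per-gene calls in the temperature comparisons were rare, at 0.00583% of genes in iBAT GC, 0.0175% in iBAT Ctrl, 0.0149% in goWAT GC, 0.312% in goWAT Ctrl and 0% in scWAT Ctrl, but 8.18% in scWAT GC.

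Subtracting the response to GC at 22 °C from the one at 13 °C gave, for Lox, -0.24 ± 0.44 in iBAT, -0.16 ± 0.42 in goWAT and -0.74 ± 0.39 in scWAT (adjusted p = 0.929, 0.894 and 0.564). Of the 14 such interactions of the 5 members, edgeR, DESeq2 and limma called 0 each, and none had an unadjusted p under 0.05. Over all genes 0.461% were called in goWAT and 0% in iBAT and scWAT. The GC effect on the members was not shown to differ between depots either. The F-test over the 3 depots gave adjusted p of 0.881 for Lox at 13 °C and also at 22 °C, and the lowest values were 0.225 for Loxl4 at 13 °C and 0.175 for Loxl2 at 22 °C, where 0.234% and 0.742% of all genes were called. Both of these had an unadjusted p under 0.05 (0.00834 and 0.0119), limma called Loxl2 at 22 °C (adjusted p = 0.0323), and DESeq2 called neither.

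For temperature edgeR called 1 member in 1 comparison, Loxl2 in scWAT of corticosterone-treated mice. There it had 2.09, 1.66, 3.55 and 4.16 CPM at 13 °C, against 6.76, 14.6, 15.8, 6.96 and 16.2 CPM at 22 °C. The groups did not overlap, as for 8.67% of the scWAT genes, and the 22 °C libraries fell into 3 near 15 CPM and a pair near 7 CPM. The log2 fold change was -2.07 ± 0.42 (adjusted p = 0.0144), and Loxl2 was the 1 member of 5 that was called, where 5.17% of genes were called lower. In placebo mice scWAT had 2.90, 4.71, 2.86, 3.00 and 6.47 CPM at 13 °C, against 13.5, 5.56, 11.1 and 4.69 CPM at 22 °C. Those groups overlapped, and the log2 fold change of -1.15 ± 0.40 did not pass the test (adjusted p = 0.285).

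The Loxl2 call moved with other cell types. Of 15 macrophage markers 13 were called lower at 13 °C, and their sum was 572 to 699 CPM in GC_CT and 812 to 12172 CPM in GC_RT. Without the pair of GC_RT libraries highest in them, the log2 fold change of Loxl2 was -1.79 with an adjusted p of 0.0903, and 2 genes in all were called in place of 1555. The 2 libraries had 14.6 and 15.8 CPM of Loxl2. All 9 tested epithelial markers were called higher at 13 °C, with sums of 0.195 to 310 CPM in GC_CT and 0.245 to 2.22 CPM in GC_RT, while Lcn5 and Lcn8 were at 0 in all scWAT libraries. Without the epithelial-rich libraries 1 library of GC_CT was left, and the value was -2.49 (adjusted p = 0.705). Leaving out alone the GC_CT library labelled 3, the lowest of the group at 1.66 CPM, gave -1.87 (adjusted p = 0.0589). The parts of macrophages and epithelium in this result were not tested.

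**Figure D4:**
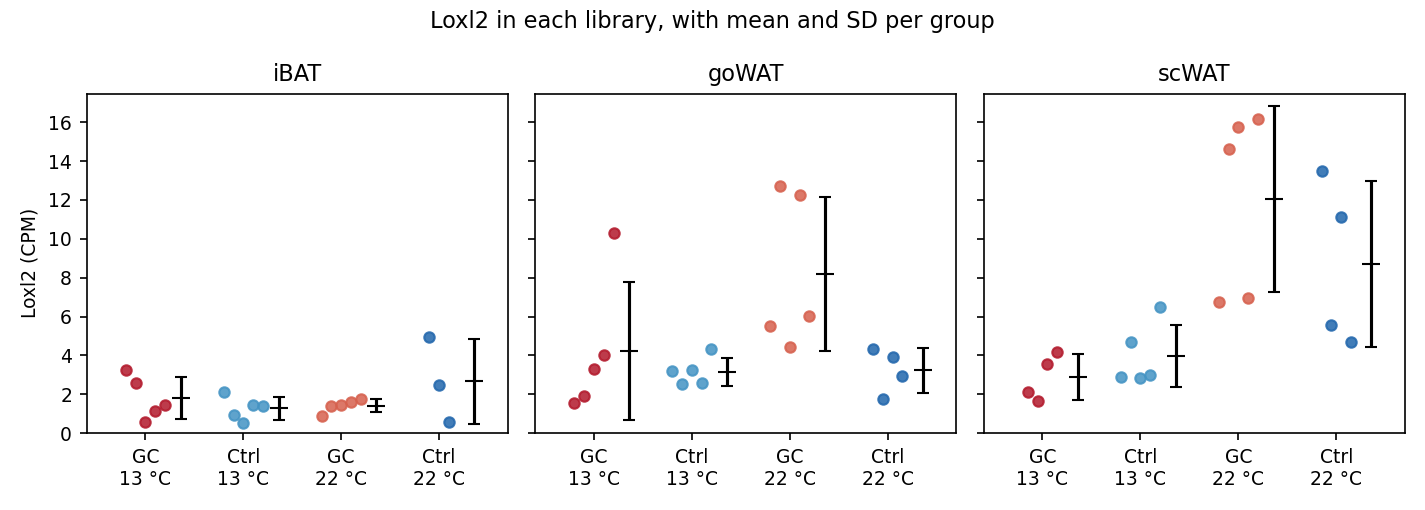
Loxl2 in CPM in each library (points), with the mean and SD of each group (black), laid out as for Lox. In scWAT the 13 °C libraries of GC mice, at 1.66 to 4.16 CPM, lie below all 22 °C libraries of GC mice, at 6.76 to 16.2 CPM.

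In the same comparison edgeR called 17 genes of the 8 lists, and none of these calls held without the libraries rich in macrophage markers or without those rich in epithelial markers. With all libraries, 3 of 9 tested fibrillar collagens fell (median log2 fold change of the list -1.15, of all genes -0.0032), Col1a1 at -1.95 ± 0.47, Col1a2 at -1.82 ± 0.42 and Col3a1 at -1.47 ± 0.37, which are the chains of the main interstitial fibres. Of 12 network collagens 4 fell, Col6a1, Col6a3, Col15a1 and Col18a1, at -1.09 to -2.10. Thbs1 at -2.90 ± 0.55 and Sparc at -1.46 ± 0.27 fell as well. Of 16 elastic fibre genes 3 fell, the microfibril genes Mfap2 and Mfap5 and the elastin-associated Emilin2, and 2 rose, the latent TGF-beta binding proteins Ltbp2 at 0.99 ± 0.27 and Ltbp3 at 1.78 ± 0.37. These genes stand in the comparison in which 13 of 15 macrophage markers and 4 of 15 progenitor markers were called lower. Mfap5 belongs to both the elastic fibre genes and the progenitor markers, so it is counted in both.

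In iBAT of placebo mice, Loxl1 had 11.6, 6.99, 11.04, 8.91 and 7.17 CPM at 13 °C, against 20.0, 18.4 and 27.8 CPM at 22 °C. The groups did not overlap, which is so for 6.96% of iBAT genes, and the log2 fold change of -1.27 ± 0.34 did not pass edgeR's test (unadjusted p = 0.00115, adjusted p = 0.279) or that of DESeq2 (adjusted p = 0.0572). With limma's library weights it did, at -1.18 and an adjusted p of 0.0187, and so did Loxl2, at -1.65 and an adjusted p of 0.0469, in a fit that called 1029 genes where edgeR called 3. Sums of white adipocyte markers leaned in the same direction but overlapped, with 12536 to 28264 CPM at 13 °C and 21813 to 55223 CPM at 22 °C. Progenitor sums also overlapped, at 777 to 2181.5 CPM at 13 °C and 933 to 4755 CPM at 22 °C. Sums of Schwann cell markers went the other way without overlap, at 67.8 to 142 CPM at 13 °C and 40.9 to 57.6 CPM at 22 °C. The part of these cells was not tested.

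The depots differed in their levels without treatment. In placebo mice at 13 °C, per kilobase of exon and on a common scaling, Lox averaged 3.52 ± 0.732 CPM in iBAT, 8.38 ± 2.48 CPM in goWAT and 11.9 ± 3.52 CPM in scWAT (SD, n = 5 each). Loxl1 averaged 3.37 ± 0.804, 17.3 ± 5.16 and 14.9 ± 3.63 CPM per kilobase in the same order of depots. Loxl2 averaged 0.289 ± 0.134, 0.533 ± 0.121 and 0.663 ± 0.262, and Loxl3 0.122 ± 0.111, 0.806 ± 0.296 and 0.675 ± 0.213. Loxl4 was the scarcest, at 0.0794 ± 0.138, 0.274 ± 0.0756 and 0.0231 ± 0.0205. Lox and Loxl1 had the highest averages in each depot, and in white fat of placebo mice Loxl1 was the higher of the pair on average. In iBAT of placebo mice at 22 °C Loxl1 was the higher too, at 8.20 ± 1.88 CPM per kilobase beside 3.90 ± 1.51 for Lox (SD, n = 3).

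In iBAT against goWAT at 13 °C, 3 of 5 members were lower, where 36.1% of all genes were called and 21.2% called lower. The log2 fold changes were -1.25 ± 0.30 for Lox (adjusted p = 0.000754), -2.36 ± 0.35 for Loxl1 (adjusted p = 5.58e-07) and -2.72 ± 0.69 for Loxl3 (adjusted p = 0.00158). The same 3 members were lower in iBAT against scWAT at 13 °C (18% of genes called, 10.7% lower), at -1.76 ± 0.30, -2.15 ± 0.35 and -2.46 ± 0.69 (adjusted p = 3.66e-05, 1.83e-05 and 0.00853, in the order Lox, Loxl1, Loxl3). The median log2 fold change of all genes was -0.20 in iBAT against goWAT and -0.11 in iBAT against scWAT at 13 °C, and -0.15 in iBAT against goWAT at 22 °C, so the differences of members are to be read against these shifts. In iBAT against goWAT at 13 °C limma also called Loxl4, at -3.09 (adjusted p = 0.0103), and in iBAT against scWAT edgeR also called Loxl2 without iBAT Ctrl_CT library 1, at -1.43 (adjusted p = 0.0443).

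Between goWAT and scWAT at 13 °C the 1 member called was Loxl4, at 3.41 ± 1.05 (adjusted p = 0.042; 5.58% of genes called, 2.34% higher), with 27 to 61 counts in the goWAT libraries and 0 to 7 counts in those of scWAT. This call was lost when no filter on low counts was used (adjusted p = 0.0543) and without goWAT Ctrl_CT library 1, 3, 4 or 5 or scWAT Ctrl_CT library 2, 3, 4 or 5, each left out alone, at adjusted p of 0.0506 to 0.110. At 22 °C the 1 member called was Loxl1 in iBAT against goWAT, at -1.36 ± 0.42 (adjusted p = 0.0197; 14.7% of genes called, 6.4% lower), with a mean of 27.0 ± 6.20 CPM in iBAT and 69.5 ± 15.3 CPM in goWAT on the common scaling (SD, n = 3 and 4). It was lost without the iBAT Ctrl_RT library 1 or 2 or the goWAT Ctrl_RT library 4, at adjusted p of 0.0718, 0.0758 and 0.0591. No member was called at 22 °C between iBAT and scWAT (2.81% of genes called) or between goWAT and scWAT (4.33% of genes called). There, 3 members in the first and 1 in the second had an unadjusted p under 0.05, DESeq2 called none, and limma called Loxl2 between goWAT and scWAT (adjusted p = 0.0367). Whether depots were collected or prepared at different times is not given, so depot and preparation cannot be told apart.

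**Figure D5:**
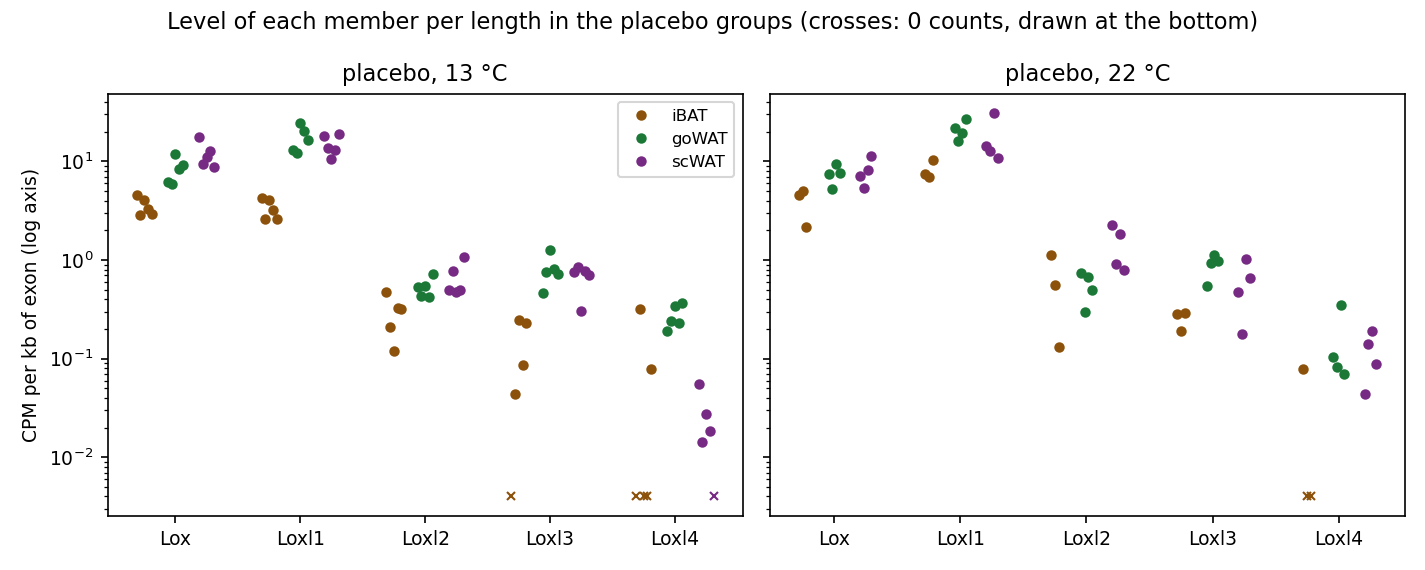
CPM per kilobase of exon (log axis) of each member in each placebo library at 13 °C (left) and 22 °C (right), by depot; crosses are libraries with 0 counts. At 13 °C the iBAT points of Lox and Loxl1 run from 2.61 to 4.54 and the goWAT and scWAT points of these genes from 5.90 to 24.6. The share of all genes with depots separated in this way was not counted.

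With treatment included, the levels of Lox were put in order over the 12 groups. On the common scaling it was highest in scWAT GC_RT at 179 ± 54.6 CPM, then scWAT GC_CT at 158 ± 41.4, goWAT GC_CT at 137 ± 55.9 and goWAT GC_RT at 133 ± 54.9 CPM, and these neighbours differed by less than their SD. Both iBAT GC groups came next, at 81.4 ± 30.6 CPM at 22 °C and 62.7 ± 18.7 CPM at 13 °C, and placebo scWAT at 13 °C followed with 56.9 ± 16.8 CPM. The lowest were iBAT Ctrl_RT at 18.6 ± 7.20 CPM and iBAT Ctrl_CT at 16.8 ± 3.50 CPM. Loxl1, by contrast, was ordered by depot, with the 8 groups of white fat at 45.7 to 72.3 CPM and the 4 groups of iBAT at 11.1 to 27.0 CPM.

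The genes whose levels ran most like a member's were sought over all 55 libraries, as Pearson's r of log2 CPM with the depot means removed, among the 8052 genes whose log2 CPM averaged 3 or more. The libraries share treatment groups and depth, so these values are descriptions. For Lox they were Mturn (r = 0.883), Lep, the adipocyte hormone leptin (0.848), Cd164l2 (0.836) and Prrg3 (0.834). Within scWAT alone Lep followed Lox at r = 0.949. For Loxl1 they were Crtap (0.666), a subunit of the complex that hydroxylates collagen prolines, Adam15 (0.657), Zfp771 (0.645) and Ssbp4 (0.643). For Loxl2 they were Vat1 (0.785), S100a6 (0.774), Tmem165 (0.752) and Timp2 (0.746), an inhibitor of matrix metalloproteinases. For Loxl3 the closest was Slc8b1 (0.58) and for Loxl4 Ceacam1 (0.601), followed by Slc31a1 (0.558), the copper importer of cells. The r of Slc31a1 was 0.72 in goWAT, 0.73 in scWAT and 0.26 in iBAT, where Loxl4 was at 0 in 8 of 18 libraries. No member ran close to another, with r between -0.20 (Loxl1 and Loxl4) and 0.38 (Loxl1 and Loxl3), and 0.22 between Lox and Loxl1.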

How the data were processed

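Read counts per gene were deposited as raw counts, 1 table per depot. FastQC, GSNAP, featureCounts 1.6.3 and the mm10 build are named in the submitters' processing notes, and neither annotation release nor strand setting is given there. Libraries were grouped by the labels. Each depot was fitted with edgeR 4.0.16 (quasi-likelihood test, TMM scaling, filterByExpr with a minimum count of 10 and a minimum total of 15), with all 4 groups sharing the spread; depots were compared in a joint fit of 55 libraries. P-values were adjusted by Benjamini-Hochberg over all genes tested (17163 in iBAT, 20175 in goWAT, 19003 in scWAT, 22245 jointly), and called means an adjusted p under 0.05. CPM use TMM library sizes, ratios use counts plus 0.5 per kilobase of exon, and 3 counts are the limit that a count of 0 allows, for counting error only. The code was checked on simulated counts. Alternatives were DESeq2 1.42.0, limma 3.58.1 with library weights, other scalings, no filter, only the 2 groups compared, a replicate block and libraries left out; those without epithelial-rich libraries, list counts with libraries left out, and the ratio with 2 counts added, were chosen after seeing the data. Members, gene lists and doubted libraries were chosen with earlier results of these data known. Genes other than members are named where they passed the test in a list, or as the 4 with the highest r to a member.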

Additional observations from a re-analysis of the deposited data

Results flagged for a closer look

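In 5 of 55 sets of values (each member in each group of 4 or 5 libraries), 1 library stood far from the others, and chance marks about 1 in 20 such groups. Loxl4 had 1.09 CPM in iBAT Ctrl_CT library 2, with 0 to 0.274 CPM in the others of that group. Loxl2 had 10.3 CPM in goWAT GC_CT library 5, with 1.53 to 4.04 CPM in the others. Loxl4 had 1.62 CPM in goWAT Ctrl_RT library 3, with 0.320 to 0.474 CPM in the others, and 1.15 CPM in scWAT GC_RT library 1, with 0.188 to 0.408 CPM in the others. Loxl3 had 1.57 CPM in scWAT Ctrl_CT library 3, below the 3.58 to 4.40 CPM of the others.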

How the results depend on the processing

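Lox stayed called in 107 of 109 alternatives of the 6 corticosterone comparisons, at log2 fold changes of 1.29 to 2.42. Counts of members called were equal to the reported ones in 434 of 460 alternatives, differed by up to 1.5 times in 3 and by more in 23, and the cause was not tested. The 3 were 4 members in place of 3 in iBAT against goWAT at 13 °C, by limma and without iBAT Ctrl_CT library 2, and in iBAT against scWAT at 13 °C, without iBAT Ctrl_CT library 1. In iBAT at 22 °C, 0 members were called with only the 2 groups compared, and in scWAT at 13 °C 0 without the epithelial-rich libraries. DESeq2 called 2 members in goWAT at 22 °C, and limma called 2 for temperature in iBAT of placebo mice, 1 between goWAT and scWAT at 22 °C and 1 for the difference between depots at 22 °C. For temperature in scWAT of GC mice 0 were called without the macrophage-rich or the epithelial-rich libraries, and 0 to 1 with 1 library left out. For iBAT against goWAT at 22 °C 0 were called without libraries rich in other cell types and 0 to 2 with 1 left out, and for goWAT against scWAT at 13 °C 0 without a filter and 0 to 1 with 1 left out. The sign of uncalled Lox values turned for temperature in goWAT of GC mice, at -0.0053 with DESeq2 size factors, -0.042 with upper quartile scaling, -0.021 without the brown-rich libraries, -0.0015 with DESeq2, -0.18 without those of low quality, -0.12 without epithelial-rich ones and -0.18 to 0.19 with 1 left out. It also turned in scWAT of GC mice (0.061 without epithelial-rich libraries), and with 1 library left out in iBAT of placebo mice (-0.43 to 0.064), the interactions of iBAT (-0.45 to 0.036) and goWAT (-0.36 to 0.0046) and goWAT against scWAT at 22 °C (-0.25 to 0.12). Replicate numbers did not pair the libraries: deviations of same-numbered libraries correlated above 0.1 in 7 of 24 pairs in iBAT, 4 of 27 in goWAT and 4 of 24 in scWAT, and 5 of 18, 1 of 19 and 2 of 18 libraries correlated best with their own number. With the replicate block the 15 counts of members were the same, and the Lox value for temperature in iBAT of placebo mice was 0.074. Counts of all genes called moved more. Genes called for corticosterone at 13 °C and 22 °C depended on the tool. In iBAT edgeR called 125 and 114, DESeq2 412 and 418, and limma 263 and 971. In goWAT the numbers were 292 and 1206, 962 and 2384, and 2202 and 1019, in the same order of tools. In scWAT they were 493 and 1317, 1161 and 2393, and 1514 and 2266. For temperature in scWAT of GC mice 1555 genes were called, 376 with only the 2 groups compared, 494 with the block, 2971 by DESeq2 and 2891 by limma. Loxl3 had 0 to 314 and Loxl4 0 to 103 counts per library.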
